A study of Mus musculus with 18 samples.

Results

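RNA of the prefrontal cortex (PFC) was compared between high and low performers among Diversity Outbred mice. The comparison rests on 6 of the 18 libraries of the series, 3 titled PFC high performer and 3 titled PFC low performer, and the titles alone decided the group. Of 48440 genes in the deposited table, 17991 had a mean of at least 10 normalized counts over these 6 libraries and were tested. Normalized counts are the authors' values per gene and library, and the formula behind them is not given in the sources used here. Diversity Outbred mice are an outbred stock descended from several inbred founder strains, so that each animal carries its own mix of founder alleles. Both groups come from this stock, and the labels name no treatment, age or sex for either. The series was made to study short-term memory through genetic mapping and RNA sequencing. Which test set high against low performance is not given in the sources used here, nor whether each library came from a separate animal, so the p-values below measure the spread between these libraries.

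The prefrontal cortex holds information over short delays and guides behaviour with it, a capacity called working memory. Its pyramidal neurons spend much energy on firing and on synaptic transmission, and most of that energy comes from oxidative phosphorylation in mitochondria. The respiratory chain (complexes I to IV) and the ATP synthase are built from many subunits encoded in the nucleus and a few encoded on the mitochondrial genome. Immediate-early genes such as Fos and Egr1 are switched on within minutes by neuronal activity, and the level of their RNA in a tissue depends on what the animal did shortly before the tissue was taken.

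Cortical identity was checked on defining genes. Slc17a7, the vesicular glutamate transporter of cortical excitatory neurons, lay between 73899 and 85224 normalized counts in the 6 PFC libraries. Neurod2, a transcription factor of cortical excitatory neurons, lay between 3781 and 5707 in PFC and between 73.7 and 269 in the 6 libraries of the tissue labelled MDTH. Gbx2, which marks thalamic neurons, was between 1.44 and 5.11 in PFC. Ddx3y, on the Y chromosome, was between 2571 and 3454 in all 6 libraries, and Xist, which silences the second X chromosome of females, was at or below 29.7.

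The libraries were alike in depth, with 41156227 to 48838302 reads each as estimated from the size of the lowest values. They differed in composition along the groups. Genes of the mitochondrial genome held 5.25% to 5.59% of all normalized counts in the high performers and 8.25% to 8.79% in the low performers. The 50 most abundant genes held 14.3% to 14.8% and 17.8% to 18.1%. Values within 0.02 of a whole number of reads made up 53.7% to 66.7% of the low values in the high performers and 33.4% to 35.5% in the low performers. The library names are written in 1 style for the PFC high performers and in another for the PFC low performers, so performance and whatever the styles record cannot be told apart in this tissue. The median absolute log2 difference between libraries was 0.197 to 0.228 within the high performers, 0.186 to 0.306 within the low performers and 0.314 to 0.369 between the groups. Low performer replicate 2 lay farthest from the rest.

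Many nuclear genes of the respiratory chain, ribosome and proteasome were called higher in high performers, and mitochondrially encoded, immediate-early, microglial and nuclear factor I genes were among those called lower. A limma moderated test on log2(normalized count + 1), with a mean-variance trend and Benjamini-Hochberg adjustment, called 1053 genes (5.85%) at an adjusted p below 0.05. Of these, 579 (3.22% of the genes tested) were higher in high performers and 474 (2.63%) were lower. Differences are given as high minus low on this log2 scale, which understates the change of genes with low values. Over all genes tested the median difference was -0.01, with quartiles at -0.30 and 0.24. Most called differences were modest: their median size was 0.61, 166 exceeded 2-fold (81 higher, 85 lower) and 474 were under 1.5-fold. For 5568 genes (30.9%) the groups did not overlap, 3089 (17.2%) with the high performers above and 2479 (13.8%) with them below. The number called was 205, 17 and 7 without high performer replicate 1, 2 and 3, and 278, 1306 and 9 without low performer replicate 1, 2 and 3, while every called gene that was tested kept its direction. The 168 calls counted over the gene lists below became 3, 0 and 3 without high performer replicate 2, high performer replicate 3 and low performer replicate 3, and limma without the mean-variance trend called 52 genes in all.

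**Figure D1:**
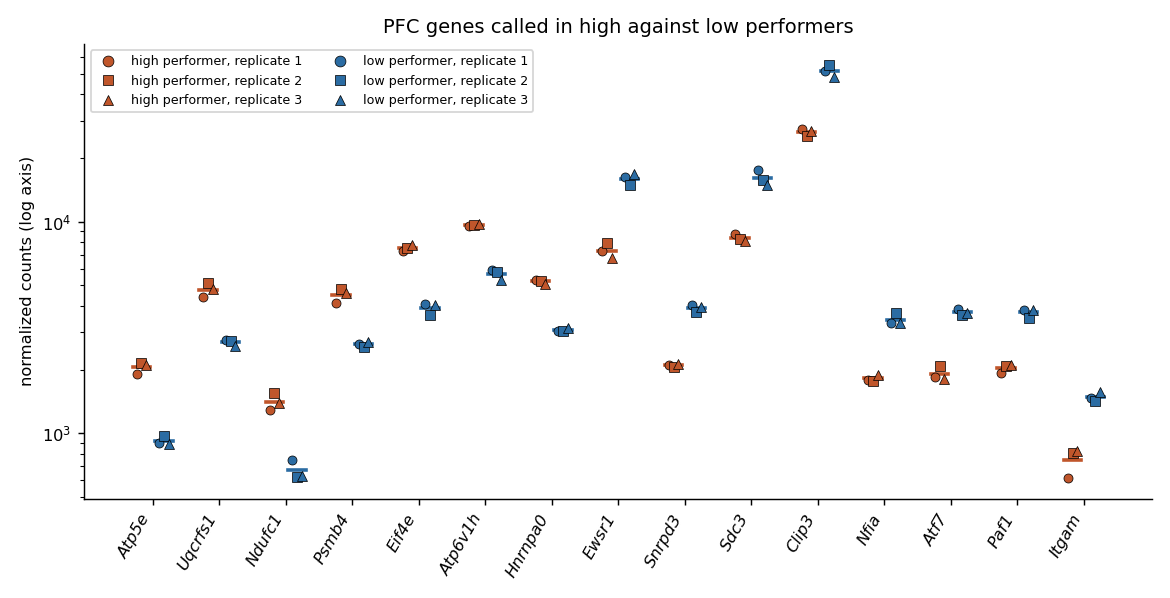
Normalized counts (log axis) of 15 called genes in the 6 PFC libraries; each point is 1 library, the marker shape gives the replicate, and the bar is the group mean. The groups do not overlap for any of the 15 genes, which are higher in the high performers from Atp5e to Hnrnpa0 and lower from Ewsr1 to Itgam.

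Nuclear genes of oxidative phosphorylation were called almost entirely in 1 direction. Of 77 nuclear genes of the respiratory chain and the ATP synthase, 32 were called higher in high performers, 1 was called lower and 44 were not called. Against the 3.22% of all tested genes called higher, the shares were 16 of 36 genes of complex I, 9 of 25 of complexes II to IV and 7 of 16 of the ATP synthase. Their median differences were 0.31, 0.31 and 0.33, beside -0.01 over all genes. Without high performer replicate 1 the number called higher was 13 and without low performer replicate 1 it was 10, and it was 0 without high performer replicate 2, high performer replicate 3 or low performer replicate 3.

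Atp5e (chr2:174461072-174464105, minus strand, GRCm38), which encodes the epsilon subunit of the ATP synthase, had 1914, 2162 and 2103 normalized counts in high performer replicates 1, 2 and 3 and 904, 969 and 894 in low performer replicates 1, 2 and 3, the order kept below. The lowest high performer was thus well above the highest low performer, and the means of 2060 ± 129 and 923 ± 40.8 (SD, n = 3 each) were 2.23-fold apart (log2 difference 1.16 ± 0.10 SE, limma adjusted p = 0.00893). Atp5g3 (chr2:73908447-73911326), a subunit c gene of the membrane rotor, read 9520, 10230 and 9589 against 6140, 6133 and 6246 (0.66 ± 0.07, adjusted p = 0.0112). Atp5l, Atp5j2, Atp5j, Atp5k and Atp5g1 were also called higher, by 0.37 to 0.70. Atp5a1, which encodes the catalytic alpha subunit, was not called at 44421, 48088 and 44467 against 36215, 37207 and 37091 (difference 0.31, 95% interval 0.14 to 0.48, adjusted p = 0.0552).

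Uqcrfs1 (chr13), the Rieske iron-sulfur protein of complex III, stood at 4433, 5113 and 4800 against 2756, 2735 and 2573 (0.83 ± 0.08, adjusted p = 0.0112). Ndufa4 (chr6:11900292-11907497), a subunit first assigned to complex I and later to complex IV, read 9140, 10145 and 9191 against 5790, 5757 and 5101 (0.78 ± 0.09, adjusted p = 0.0134). Both genes were higher in each high performer than in each low performer. The same held for Cox5a, a structural subunit of complex IV, at 5297, 5682 and 5608 against 3336, 2826 and 3309 (0.81 ± 0.09, adjusted p = 0.0136). Uqcrq, Cox6c, Uqcr10, Cox7a2, Sdhc and Sdhd were called higher by 0.36 to 0.76. Sdhc and Sdhd anchor succinate dehydrogenase, the complex shared with the citric acid cycle, in the membrane.

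In complex I, Ndufc1, an accessory membrane-arm subunit, had the largest difference, with 1285, 1552 and 1386 against 752, 620 and 631 (1.08 ± 0.13, adjusted p = 0.0137). Ndufb2, Ndufb4, Ndufb5, Ndufb6, Ndufb7 and Ndufb8 of the membrane arm and Ndufs1, Ndufs3, Ndufs4, Ndufs5 and Ndufs7 were called higher as well. Ndufs1, the large iron-sulfur subunit that passes electrons along the peripheral arm, read 9163, 9000 and 8336 against 6190, 6977 and 6095 (0.46 ± 0.08, adjusted p = 0.0302). Ndufa10 was the exception, with 5800, 5804 and 5755 against 7850, 7916 and 6850, a called difference of -0.38 ± 0.08 (adjusted p = 0.0455).

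**Figure D2:**
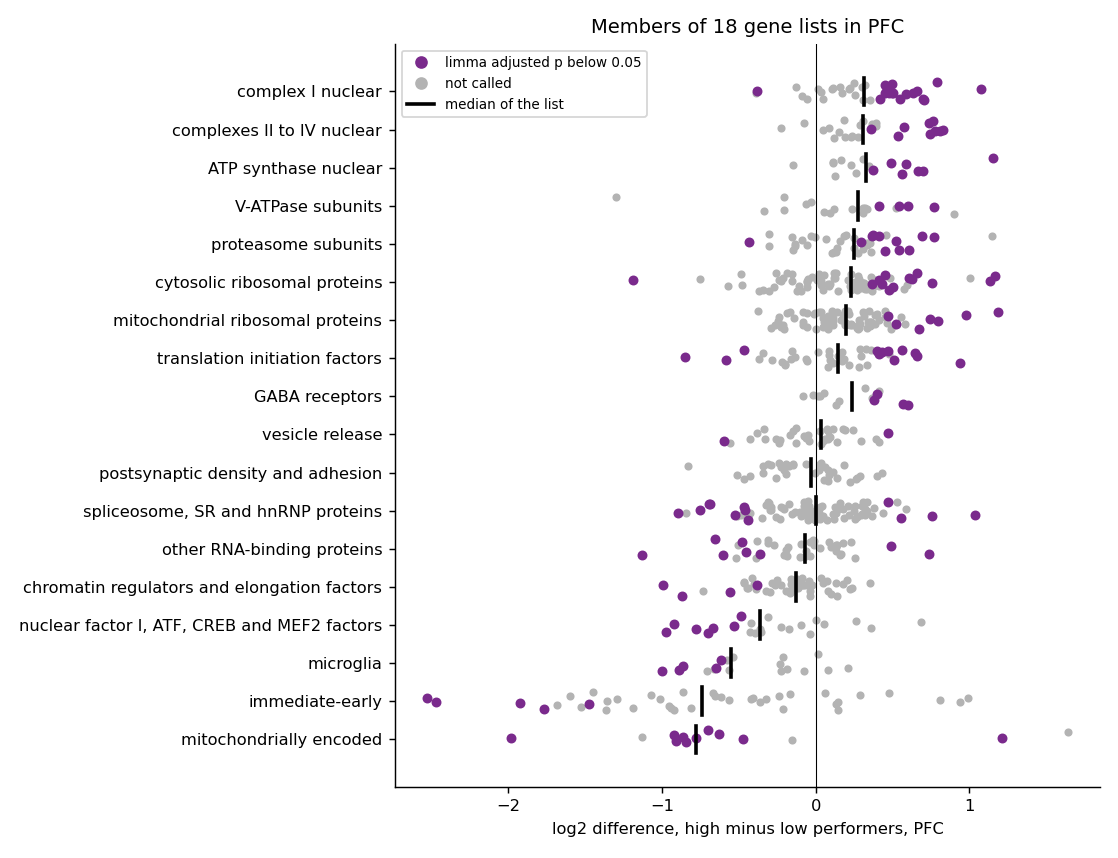
Log2 difference, high minus low performers, of every tested member of 18 gene lists in PFC; purple points were called, grey points were not, and the black bar is the median of the list. Respiratory chain and ATP synthase lists sit to the right of 0, with medians of 0.31 to 0.33, and the immediate-early and mitochondrially encoded lists to the left, at -0.74 and -0.78.

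Promoters of 3 of these genes are printed because the oxidative phosphorylation genes were called together and their promoters hold short motifs that can be read directly. RefSeq sequence of GRCm38.p6 gave a promoter for 28 of the 33 called genes, and the 250 bases before each start were searched on both strands for the cyclic AMP response element TGACGTCA, the motif of nuclear respiratory factor 1 (NRF1), whose letters are the capitals in Atp5k below, and the GABP motif CCGGAAGT. TGACGTCA was present in 3 of the 28 genes (10.7%), Ndufa10, Ndufb2 and Uqcrfs1, against 1.77% of 27025 genes, and in 4 of the 64 tested genes with a promoter (6.25%). The NRF1 motif was present in 1 of 28 (3.57%), Atp5k, and 4 of 64 (6.25%), against 0.877% of all genes, and CCGGAAGT in 0 of 28 and 3 of 64 (4.69%), against 3.23%. Of the 3 genes with TGACGTCA, Ndufa10 was the gene called lower and the other two were called higher. A match is a string of letters, not a measured binding site. Capitals mark the motif, which begins 29, 14 and 50 bases before the start in Uqcrfs1 (chr13:30545317-30545566, minus strand), Ndufb2 (chr6:39592315-39592564, plus strand) and Atp5k (chr5:108434400-108434649, minus strand).
Uqcrfs1: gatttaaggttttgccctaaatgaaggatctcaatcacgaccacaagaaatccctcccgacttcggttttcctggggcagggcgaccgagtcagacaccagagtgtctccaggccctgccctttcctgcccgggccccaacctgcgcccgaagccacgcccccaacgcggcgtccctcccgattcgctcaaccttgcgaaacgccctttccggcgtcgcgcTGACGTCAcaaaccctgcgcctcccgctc
Ndufb2: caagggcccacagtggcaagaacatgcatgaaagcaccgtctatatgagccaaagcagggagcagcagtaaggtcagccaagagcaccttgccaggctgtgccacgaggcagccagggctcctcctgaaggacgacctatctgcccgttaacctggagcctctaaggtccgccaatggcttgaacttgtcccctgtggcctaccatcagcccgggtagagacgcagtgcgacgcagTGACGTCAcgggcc
Atp5k: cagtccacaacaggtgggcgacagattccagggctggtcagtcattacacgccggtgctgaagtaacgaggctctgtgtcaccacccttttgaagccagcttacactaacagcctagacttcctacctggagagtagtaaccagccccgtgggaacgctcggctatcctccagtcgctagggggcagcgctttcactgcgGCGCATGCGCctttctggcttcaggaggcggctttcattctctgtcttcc

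The genes of the mitochondrial genome went the other way. Of 13 tested, 9 were called lower in high performers (474 of 17991, or 2.63%, over all genes), 1 was called higher and 3 were not called, with a list median of -0.78. Their summed normalized counts were 2553182 to 2842856 in the high and 4320783 to 4602486 in the low performers. mt-Nd5, a proton-pumping subunit of complex I, read 209158, 196155 and 219488 against 366077, 365002 and 391904 (-0.85 ± 0.10, adjusted p = 0.0136). mt-Atp8, a subunit of the ATP synthase, read 74122, 69067 and 70965 against 140566, 133901 and 127782 (-0.91 ± 0.08, adjusted p = 0.00958). Each of these genes was lower in every high performer. mt-Nd1, mt-Nd2, mt-Nd4, mt-Nd6, mt-Co1 and mt-Cytb were called lower by 0.47 to 0.92.

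mt-Nd4l (chrM:9877-10173) was the gene called higher, with 13599, 11894 and 14522 against 6631, 4790 and 5914 (1.21 ± 0.14, limma adjusted p = 0.0136). mt-Nd3, encoded beside it, went the same way and was not called. It read 5429, 3467 and 4611 against 607, 3270 and 1428, with every high performer above every low performer. mt-Co2 (chrM:7013-7696) had the largest difference of the list, at 10029, 5785 and 2914 against 19334, 21299 and 25202 (-1.98 ± 0.40, adjusted p = 0.0385), whereas mt-Co3, another subunit of complex IV, differed by -0.15 (95% interval -0.35 to 0.05). Because mitochondrial genes have near-identical nuclear copies and are transcribed as long precursors, how reads were split among them is uncertain, and the share of reads given to each was not tested here. Scaling the libraries to equal totals without these genes raised the number of genes called from 1053 to 1254, and those called higher from 579 to 720.

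Genes that build and run the translation machinery were mostly higher where they were called. Of 81 cytosolic ribosomal protein genes, 12 were called higher and 1 lower (3.22% and 2.63% over all genes), with a median of 0.23. Among 78 mitochondrial ribosomal protein genes 7 were called higher and 0 lower, with a median of 0.20. Rps20, a protein of the small subunit, read 4194, 6230 and 5362 against 2274, 2696 and 2147 (1.14 ± 0.16, adjusted p = 0.0185). Rpl39 (chrX:37082520-37085402), a small protein near the exit of the peptide tunnel, read 1655, 2231 and 2087 against 851, 935 and 853 (1.17 ± 0.13, adjusted p = 0.0136). Rps26 was opposite, at 1497, 3117 and 1720 against 4621, 4671 and 4391 (-1.19 ± 0.25, adjusted p = 0.0448). Rpl22l1 (chr3:28805436-28807424), a paralog of Rpl22, showed 2342, 2663 and 2396 against 640, 606 and 661, which is 3.88-fold higher in the high performers (1.95 ± 0.10, adjusted p = 0.00174), and it remained called whichever of the 6 libraries was left out. Ribosomal protein genes have many processed pseudogenes, so the split of reads among copies is uncertain for all of these.

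Among 41 genes of translation initiation 9 were called higher and 3 lower (3.22% and 2.63% over all genes), with a median of 0.14. Eif4e (chr3:138526179-138559696), the protein that binds the cap of messenger RNA, read 7294, 7496 and 7728 in the high performers and 4098, 3621 and 4039 in the low performers, a 1.92-fold difference (0.94 ± 0.08, adjusted p = 0.00893). Eif4ebp2, the brain form of the protein that holds eIF4E inactive, had the opposite sign, at 832, 778 and 869 against 1539, 1482 and 1440 (-0.85 ± 0.10, adjusted p = 0.0136). The cap-binding gene and its inhibitor thus separated the groups without overlap and in opposite directions. Eif4a2, an RNA helicase of the same complex, Eif5, Eif1, Eif3m and Eif2b1 were called higher by 0.47 to 0.66. Eif3b and Eif4g2 were called lower, by 0.59 and 0.47.

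Lars2 (chr9:123366927-123462666), the leucyl-tRNA synthetase of mitochondria, separated the groups widely, with 15355, 12884 and 15691 against 3095, 2084 and 4624 (4.48-fold, 2.23 ± 0.27, adjusted p = 0.0136). Mrps14, a protein of the small mitochondrial ribosomal subunit, read 1419, 2468 and 1734 against 930, 759 and 726 (1.19 ± 0.21, adjusted p = 0.0288). Chchd2, a protein of the mitochondrial intermembrane space, read 8219, 7947 and 8602 against 4706, 3672 and 3940 (1.01 ± 0.11, adjusted p = 0.0112). All 3 genes serve mitochondria and were higher in every high performer.

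Protein turnover and acidification of organelles followed a like count. Of 39 proteasome genes 10 were called higher and 1 lower (3.22% and 2.63% over all genes), with a median of 0.25. Psmb4, a subunit of the proteolytic core, read 4152, 4794 and 4603 against 2658, 2556 and 2714 (0.77 ± 0.08, adjusted p = 0.0134), and Psmb5, which carries the chymotrypsin-like activity, read 1734, 2243 and 1931 against 1290, 1314 and 1246 (0.61 ± 0.12, adjusted p = 0.0322). Psmd4, a ubiquitin receptor of the cap, was the gene called lower (-0.44 ± 0.09, adjusted p = 0.0466). Of 20 genes of the vacuolar proton pump, which acidifies lysosomes and synaptic vesicles, 4 were called higher and 0 lower (median 0.27). Atp6v1h (chr1:5070018-5162529), a regulatory subunit of that pump, varied little within a group, at 9528, 9664 and 9790 against 5919, 5763 and 5317 (0.77 ± 0.07, adjusted p = 0.00958). Ndfip1, an adaptor that recruits ubiquitin ligases of the Nedd4 family, read 14361, 14129 and 14508 against 9374, 8491 and 8738 (0.69 ± 0.07, adjusted p = 0.0112).

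Of 29 chaperonin and heat shock genes 3 were called higher and 1 lower (3.22% and 2.63% over all genes). Those called higher were the chaperonin subunits Cct3, Cct7 and Cct8, by 0.38 to 0.47. Bag3 (chr7:128523616-128546981), a co-chaperone of selective autophagy, was called lower, at 234, 354 and 317 against 684, 720 and 706 (-1.24 ± 0.18, adjusted p = 0.0188). The list median was 0.05, close to that of all genes.

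Genes of the fuel pathways that feed the respiratory chain are given beside the 5.85% of all genes called in either direction. Of 16 glycolysis genes 0 were called higher and 1 lower by limma, with 8 at an unadjusted p below 0.05 and a median of 0.14. The gene called was Gpi1 (chr7:34201330-34230336), glucose-6-phosphate isomerase, at 25320, 28810 and 27786 against 46672, 43055 and 44390 (-0.71 ± 0.08, adjusted p = 0.0136). Of 21 genes of pyruvate dehydrogenase and the citric acid cycle, Dld was called higher (0.34 ± 0.07, adjusted p = 0.0387) and the kinases Pdk2 and Pdk4, which switch pyruvate dehydrogenase off, were called lower. Pdk4 read 583, 551 and 511 against 1268, 1317 and 926 (-1.08 ± 0.16, adjusted p = 0.0196), and Pdk2 read 5173, 5701 and 5111 against 8450, 7703 and 7160 (-0.54 ± 0.09, adjusted p = 0.024). Both kinases were thus lower in every high performer. Of 21 cholesterol synthesis genes 0 were called, with 3 at an unadjusted p below 0.05 and a median of -0.05.

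Of 40 immediate-early genes tested, 5 were called lower in high performers and 0 higher (2.63% and 3.22% over all genes), and 35 were not called. Their differences ran from -2.53 to 0.99, with a median of -0.74. The groups did not overlap for 14 with the high performers below (13.8% over all genes) and for 2 with them above (17.2%). The number called lower was 3 without low performer replicate 3, 2 without low performer replicate 1 and 0 when any high performer was left out. Fos (chr12:85473890-85477273), a subunit of the AP-1 transcription factor, read 665, 645 and 752 in the high performers and 6786, 5106 and 1586 in the low performers, a 6.54-fold difference of means (-2.47 ± 0.49, adjusted p = 0.0368). The 3 high performers were close together, while the low performers ran from 1586 in replicate 3 to 6786 in replicate 1. Egr1, a zinc finger factor, showed 10797, 9429 and 11271 against 45084, 25750 and 21277 (-1.48 ± 0.26, adjusted p = 0.027). Nr4a2 (chr2:57106830-57124003), an orphan nuclear receptor, read 589, 646 and 913 against 4794, 2166 and 1841 (-1.93 ± 0.36, adjusted p = 0.0316). Klf4, a zinc finger factor, read 116, 166 and 102 against 533, 459 and 318 (-1.76 ± 0.28, adjusted p = 0.0213). For Fos, Egr1, Nr4a2 and Klf4 alike, low performer replicate 1 was the highest library.

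Egr2, a relative of Egr1, completed the called genes, at 101, 53.9 and 167 against 1149, 505 and 310 (-2.53 ± 0.56, adjusted p = 0.0488). Its promoter is printed because a serum response element, the motif through which growth and calcium signals reach many immediate-early genes, was found there. RefSeq gave promoters for 4 of the called genes (Egr2, Fos, Klf4 and Nr4a2), of which 1 held that motif within 250 bases before a start, against 1.62% of 27025 genes, and 0 held TGACGTCA. Of the 32 tested members with a promoter, 2 (6.25%) held the serum response element and 4 (12.5%) held TGACGTCA, against 1.77% of all genes. A gene counts as holding a motif if any of its promoters does. The window below is chr10:67537619-67537868 (plus strand), and the motif in capitals begins 72 bases before the start.
Egr2: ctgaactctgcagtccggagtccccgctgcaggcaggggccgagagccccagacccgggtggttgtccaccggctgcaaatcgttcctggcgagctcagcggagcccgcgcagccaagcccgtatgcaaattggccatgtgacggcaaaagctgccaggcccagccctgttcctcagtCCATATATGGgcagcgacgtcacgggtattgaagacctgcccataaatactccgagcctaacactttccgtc

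Arc, which regulates AMPA receptor traffic at synapses, was below every low performer in every high performer, at 7630, 9079 and 6252 against 38454, 31250 and 9982, and was not called (-1.60, 95% interval -2.71 to -0.48, adjusted p = 0.0959). Other members had differences of the opposite sign and were not called either. Nptx2, a secreted pentraxin that gathers AMPA receptors, read 2752, 4905 and 5258 against 2893, 1936 and 2364 (0.81, 95% interval 0.18 to 1.43, adjusted p = 0.121). Bdnf, the neurotrophin induced by activity, read 1562, 2020 and 2979 against 1786, 627 and 1060 (0.99, 95% interval 0.07 to 1.92, adjusted p = 0.18). The time between behaviour or handling and tissue collection is not given in the sources used here, and its part in these levels was not tested.

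**Figure D3:**
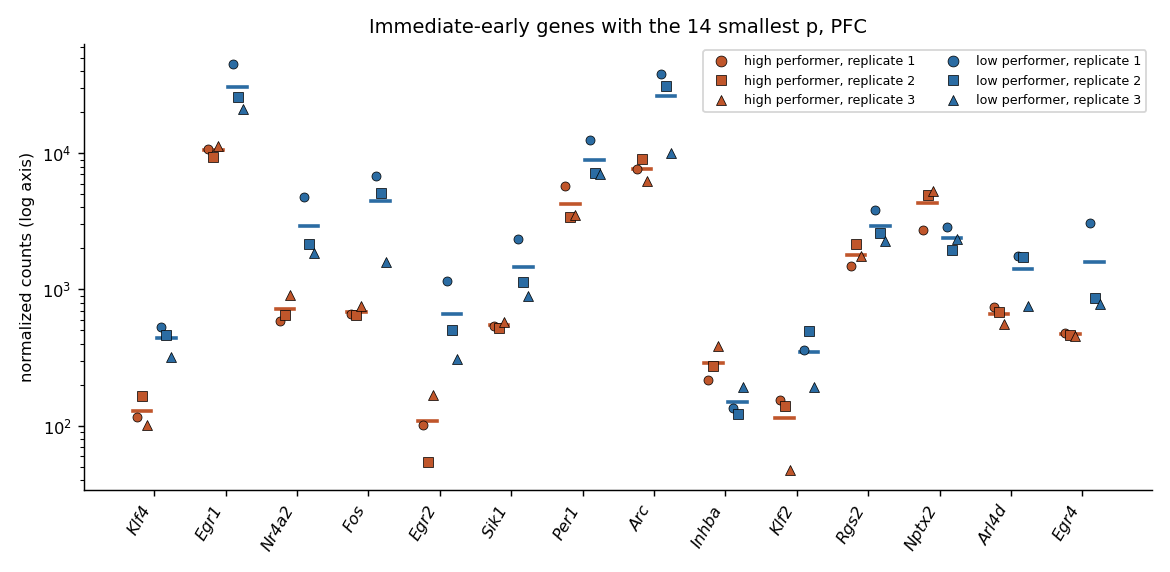
Normalized counts (log axis) of the 14 immediate-early genes with the smallest p in the 6 PFC libraries; each point is 1 library and the bar is the group mean. Fos, Egr1, Nr4a2, Klf4 and Egr2 were called lower in the high performers, while Inhba and Nptx2 have the higher mean in the high performers and were not called.

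Transcription factors of the nuclear factor I, ATF, CREB and MEF2 families were called in 1 direction. Of 22 tested, 7 were called lower and 0 higher (2.63% and 3.22% over all genes), with a median of -0.36. Nfia, a factor of glial and neuronal differentiation, read 1794, 1761 and 1896 against 3331, 3708 and 3307 (-0.92 ± 0.09, adjusted p = 0.00958). Atf7, a factor of the ATF2 group, read 1838, 2082 and 1798 against 3890, 3606 and 3719 (-0.97 ± 0.09, adjusted p = 0.00958). Both had about the same level in the 3 libraries of a group. Nfic, Nfix, the CREB coactivators Crtc2 and Crtc3 and the activity-dependent factor Mef2d were called lower by 0.48 to 0.78. Nfib, of the same family as Nfia, differed by -0.04 (95% interval -0.32 to 0.25).

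Of 52 chromatin regulators and elongation factors 4 were called lower and 0 higher (2.63% and 3.22% over all genes), with a median of -0.13. Paf1, of the complex that travels with RNA polymerase II, read 1939, 2087 and 2095 against 3828, 3525 and 3843 (-0.87 ± 0.08, adjusted p = 0.00958). Kdm6b, a histone H3 lysine 27 demethylase, read 1267, 1148 and 1175 against 3158, 1899 and 2259 (-0.99 ± 0.18, adjusted p = 0.0304). Ncor1, a nuclear receptor corepressor, and Smarcc2, a BAF complex subunit, were called lower by 0.56 and 0.38. Rbbp4 (chr4:129307100-129335370), a histone chaperone outside that list, was called higher, at 6587, 6559 and 7155 against 3916, 4240 and 4160 (0.72 ± 0.08, adjusted p = 0.0118).

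RNA-binding proteins were called in both directions. Of 84 spliceosome, SR and hnRNP genes 4 (4.76%) were called higher and 8 (9.52%) lower, beside 3.22% and 2.63% over all genes. Among 40 other RNA-binding proteins 2 (5%) were called higher and 6 (15%) lower. Ewsr1 (chr11:5069689-5099266), of the FET family, read 7265, 7943 and 6727 against 16280, 14934 and 16740 (-1.13 ± 0.09, adjusted p = 0.00893). Tardbp, which encodes TDP-43, was called higher, at 9132, 8705 and 10898 against 6093, 4947 and 6174 (0.74 ± 0.12, adjusted p = 0.0248). The core spliceosome protein genes Snrpd3 and Snrpe were opposite: Snrpd3 read 2105, 2053 and 2131 against 4035, 3757 and 3934 (-0.90 ± 0.08, adjusted p = 0.00893), and Snrpe read 750, 770 and 760 against 346, 392 and 371 (1.04 ± 0.12, adjusted p = 0.0136). Hnrnpa0 was called higher (0.76 ± 0.07, adjusted p = 0.00958), while Srsf2, Srrm1, Prpf38b, Ptbp1, Rbfox1 and Celf5 were called lower by 0.48 to 0.75.

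Synaptic genes are given beside the same 5.85% of all genes called in either direction. Of 14 GABA receptor genes 4 were called higher and 0 lower (median 0.23), among them the GABA-A subunits Gabra2, Gabra4 and Gabrb2. Gabra2 read 7469, 7250 and 8226 against 5737, 4824 and 4610 (0.60 ± 0.10, adjusted p = 0.0268), and Gabrb2 read 13142, 10498 and 9685 against 7374, 7651 and 7265 (0.57 ± 0.12, adjusted p = 0.0412). Both were higher in every high performer. Of 17 NMDA, AMPA and kainate receptor genes 0 were called by limma, with 4 at an unadjusted p below 0.05. Grin2a, an NMDA receptor subunit, read 13367, 14110 and 9602 against 8639, 7176 and 7729 (0.64, 95% interval 0.27 to 1.01, adjusted p = 0.0597). Gria3, an AMPA receptor subunit, read 19264, 19446 and 18661 against 16450, 13141 and 13907 (0.41, 95% interval 0.18 to 0.63, adjusted p = 0.057).

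None of 7 metabotropic glutamate receptor genes and 30 monoamine and acetylcholine receptor genes was called by limma, with 3 and 6 at an unadjusted p below 0.05. Htr2a, a serotonin receptor of deep pyramidal cells, read 1429, 1281 and 1755 against 1120, 910 and 878 (0.61, 95% interval 0.25 to 0.98, adjusted p = 0.0663). Drd1, the dopamine receptor studied most for working memory, read 1081, 1148 and 1422 against 815, 1224 and 883 (0.33, 95% interval -0.10 to 0.77), and the groups overlapped. Of 36 genes of the postsynaptic density and synaptic adhesion 0 were called, with 13 at an unadjusted p below 0.05. Of 38 genes of vesicle release Sv2b, a synaptic vesicle glycoprotein, was called higher (0.47 ± 0.09, adjusted p = 0.0333) and Napa, which takes SNARE complexes apart with NSF, was called lower (-0.60 ± 0.10, adjusted p = 0.0239). Clip3 (chr7:30291728-30308367), a cytoplasmic linker protein, was outside these lists and called lower, at 27526, 25369 and 26974 against 51488, 55294 and 48590 (-0.96 ± 0.08, adjusted p = 0.00893).

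Of 46 potassium channel genes 4 were called higher and 2 lower (3.22% and 2.63% over all genes). Kcns2, a modifier subunit of Kv2 channels, read 1756, 1909 and 2264 against 1156, 1063 and 1115 (0.82 ± 0.12, adjusted p = 0.0185), and Kcnj4, an inward rectifier, read 5810, 6219 and 5555 against 4550, 3928 and 3387 (0.58 ± 0.12, adjusted p = 0.0402). Kcnab2, an auxiliary beta subunit, was called lower at 18504, 19675 and 16865 against 33423, 25999 and 32904 (-0.74 ± 0.12, adjusted p = 0.0222). Of 31 sodium, calcium and HCN channel genes, the calcium channel genes Cacna2d2 and Cacna1b were called lower, by 0.72 and 0.47, and 0 were called higher. Cacng7 (chr7:3332955-3368221), an auxiliary subunit of AMPA receptors, read 7132, 8338 and 6873 against 13379, 12451 and 13107 (-0.81 ± 0.09, adjusted p = 0.0136). Atp1b2, a sodium pump subunit of astrocytes, was called lower by 0.80 and Sdc3, the syndecan of neurons, by 0.95. Sdc3 read 8740, 8264 and 8086 against 17653, 15813 and 14965.

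Gpr12, an orphan receptor that couples to cyclic AMP, was not called in PFC. It read 619, 721 and 672 against 757, 501 and 620, so the groups overlapped (difference 0.12, 95% interval -0.29 to 0.53, adjusted p = 0.716). Of 32 cyclic AMP signalling genes 2 were called higher and 1 lower (3.22% and 2.63% over all genes). Pde4b, a phosphodiesterase, and Prkar2b, a regulatory subunit of protein kinase A, were called higher by 0.44 and 0.45. Prkar2a, another regulatory subunit gene, was called lower by 0.35.

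Among the genes with the largest called differences, Adcyap1 (chr17:93199017-93206537), which encodes the neuropeptide PACAP, read 1349, 1355 and 1780 against 886, 400 and 603 (1.31 ± 0.28, adjusted p = 0.046). Crym (chr7:120186380-120202111), a thyroid hormone binding protein enriched in deep cortical layers, read 4989, 5004 and 5525 against 3079, 1332 and 2275 (1.29 ± 0.28, adjusted p = 0.0443). Fam19a1 (chr6:96113154-96657198), a secreted brain peptide, read 2195, 1795 and 1605 against 1132, 693 and 607 (1.24 ± 0.24, adjusted p = 0.0355). All 3 were lowest or next to lowest in low performer replicate 2. Myl4, a myosin light chain, and Zfp607b, a zinc finger gene, were called higher by 1.19 and 1.21, and Fam205a4 by 2.32. Fam205a4 belongs to a cluster of near-identical copies on chromosome 4, so its reads may be shared with them.

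Baiap2l1 (chr5:144264526-144358112), a protein that bends membranes with actin, was far lower in the high performers, at 110, 29.9 and 6.0 against 1092, 1558 and 1499 (-5.57 ± 0.89, adjusted p = 0.022). H2-T22 (chr17:36037128-36042747), a non-classical class I gene with close paralogs that can share its reads, read 364, 91.4 and 117 against 799, 910 and 862 (-2.44 ± 0.48, adjusted p = 0.0358). Fxyd5, a regulator of the sodium pump, read 439, 444 and 382 against 1070, 2216 and 960 (-1.64 ± 0.31, adjusted p = 0.0313). Dmpk, the kinase gene of myotonic dystrophy, read 424, 439 and 423 against 1250, 895 and 1300 (-1.40 ± 0.17, adjusted p = 0.0136). Gga3, an adaptor of transport from the Golgi, read 3000, 3418 and 3055 against 9499, 5557 and 7269 (-1.20 ± 0.19, adjusted p = 0.0212), and Sec31a, a coat protein of vesicles leaving the endoplasmic reticulum, read 4670, 4535 and 3888 against 9112, 8087 and 8412 (-0.97 ± 0.10, adjusted p = 0.0112). Pcdhgc4, a clustered protocadherin whose last exons are shared with the other genes of its cluster, was called lower by 1.43.

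For 4 genes all 3 libraries of 1 group were below 5 normalized counts and all 3 of the other at or above 100, and 3 of them are given here. Gm21093 (chr4:42033017-42034726), a predicted gene near Fam205a4, was listed at 0, 1.25 and 0 against 132, 473 and 180. Gm11512 (chr11:90538484-90539146), a processed pseudogene, read 203, 449 and 485 against 2.57, 0 and 3.61. BC023719 (chr17:36111426-36117121), annotated as antisense, was listed at 421, 518 and 1064 in the high and at 0 in all low performers. The use of strand in counting is not given in the sources used here, so its reads cannot be assigned to it rather than to the gene on the other strand. The other tissues held low performers that differed from those of PFC. MDTH low performer replicate 2, whose name carries the number 163, read 374 for BC023719, and HPF low performer replicate 1, with the same number, read 407.

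Markers of other cell types were examined in the same libraries. In bulk tissue, fewer cells of a type and less RNA per cell cannot be told apart. Of 18 microglial genes 5 were called lower in high performers and 0 higher (2.63% and 3.22% over all genes), with a median of -0.55. Itgam, the integrin CD11b, read 614, 809 and 824 against 1467, 1428 and 1563 (1.98-fold lower, adjusted p = 0.0185), and P2ry12, the purinergic receptor of resting microglia, read 1888, 2247 and 1818 against 2857, 2972 and 3260 (-0.61 ± 0.11, adjusted p = 0.0288). The complement genes C1qa and C1qb and Laptm5 were called lower by 0.65 to 0.89. Cx3cr1, the fractalkine receptor, read 1989, 2308 and 2813 against 2120, 2923 and 2435 (-0.07, 95% interval -0.46 to 0.31), and the groups overlapped. Aif1, another defining marker, read 220, 283 and 224 against 189, 219 and 217 and was not called, with every high performer above every low performer (0.21, 95% interval -0.24 to 0.65). B2m, the light chain of class I molecules, was called lower, with 2119, 2149 and 1904 against 3238, 7015 and 4254 (-1.16 ± 0.26, adjusted p = 0.0487).

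Of the neuronal lists, 12 excitatory cortical genes held 1 called higher (Sv2b) and 1 called lower (3.22% and 2.63% over all genes). The gene called lower was Tbr1, a factor of deep-layer neurons, at 11619, 11066 and 12296 against 15488, 16372 and 16624 (-0.47 ± 0.07, limma adjusted p = 0.0213). Of 20 inhibitory neuron genes, Dlx2, a homeobox gene of interneurons, was called lower, at 226, 240 and 220 against 472, 385 and 422 (-0.89 ± 0.16, adjusted p = 0.0273). Sst, the somatostatin gene, differed by -0.04 (95% interval -0.44 to 0.37). None of the oligodendrocyte (20), astrocyte (18), striatal (14) or upper-layer (12) genes tested was called by limma, with 1, 3, 0 and 5 at an unadjusted p below 0.05. Of 11 thalamic genes Lef1 was called lower, at 93.5, 114 and 101 against 276, 495 and 337 (-1.80 ± 0.26, adjusted p = 0.0185), and in MDTH it lay between 2894 and 5466. The list had a median of -0.42, with the high performers below the low performers without overlap for 5 genes (13.8% over all genes) and above for 1, and 5 at an unadjusted p below 0.05. Tcf7l2, Prkcd, Zic1 and Plekhg1 were the other 4 below: Tcf7l2 read 115, 108 and 140 against 209, 427 and 281, and Zic1 read 290, 199 and 310 against 352, 2759 and 908. Ptpn3 was the gene above, at 5164, 5090 and 5276 against 3589, 2996 and 4227, and was not called either. The part of tissue next to the cortex in these levels was not tested.

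Some libraries held high levels of choroid plexus, meningeal, red blood cell or oligodendrocyte genes. Ttr, the transthyretin gene of the choroid plexus, read 137823, 1903 and 1553 against 3875, 116924 and 68839, and Kl, Folr1 and Clic6 were high in the same 3 libraries. Other genes of that list, Dcn, Lum, Col1a1, Col1a2, Col3a1 and Slc6a13, were highest in low performer replicate 2. Dcn read 206, 165 and 194 against 163, 1774 and 336, and Col1a2 read 255, 226 and 124 against 338, 2771 and 276. Hbb-bs, a haemoglobin gene of red blood cells, was 17772 in low performer replicate 2 and 2571 to 4763 in the other 5. Summed over 20 oligodendrocyte genes the level was 601318 in low performer replicate 2 and 168948 to 371122 in the others. The summed levels of these lists overlapped between the groups, and 0 of their genes were called. Still, the 13 genes of meninges, choroid plexus and ependyma had a median difference of -1.72 (range -2.54 to -0.75), each lower on average in the high performers. The median was -0.93 over 5 red blood cell genes and -0.28 over the 20 oligodendrocyte genes. Without low performer replicate 2 the count of called genes was 1306, of which 837 were among the 1053, and 4 microglial, 3 immediate-early and 15 complex I genes were called in the direction given above. The part of the choroid plexus, meningeal, blood and oligodendrocyte RNA in the differences of single genes was not tested.

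**Figure D4:**
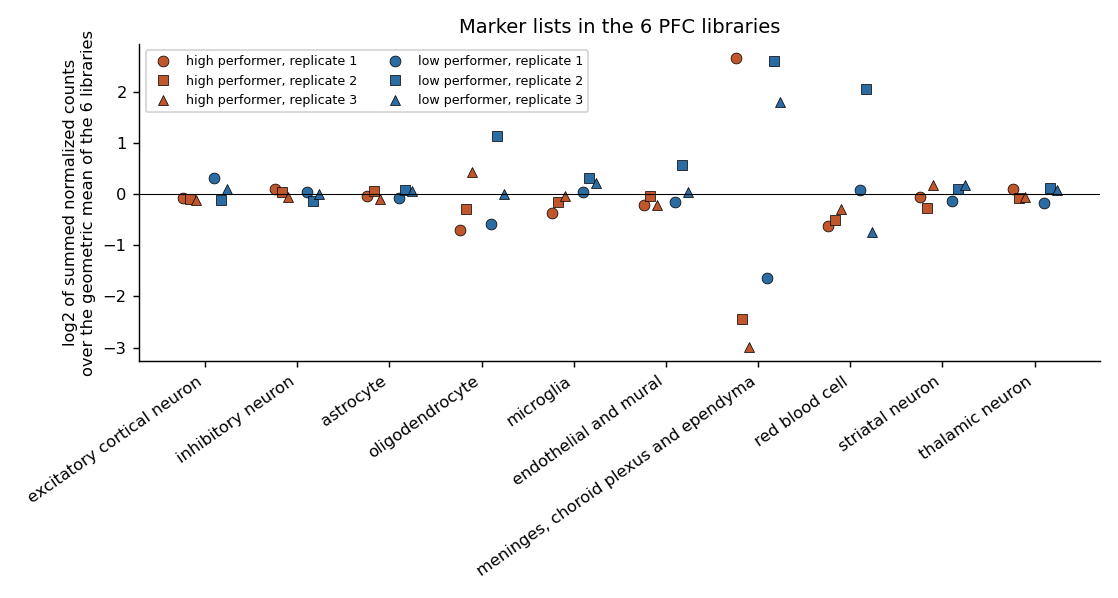
Summed normalized counts of 10 marker lists in the 6 PFC libraries, as log2 of the ratio to the geometric mean of the 6; each point is 1 library. The list for meninges, choroid plexus and ependyma is high in high performer replicate 1 and low performer replicates 2 and 3, where most of its sum is Ttr. The red blood cell and oligodendrocyte lists are highest in low performer replicate 2.

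The length of genes was compared because short genes dominate the ribosomal and respiratory lists. Among protein-coding genes with a mean of at least 100, the class with the shortest exonic length of 10 classes of like size (204 to 1983 bases) had a median difference of 0.10, with 84 called higher and 33 lower of 1269. The other 9 classes had medians between -0.03 and 0.02. Its part in the list medians above was not tested.

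Whether the PFC differences were also present in the other tissues was asked of 40 genes, the 24 with the largest called differences and the 16 abundant genes with the smallest p. Because they were chosen for their PFC difference, a smaller difference elsewhere is favoured by the choice, and the interactions below are a description of these 40 genes. In a limma model with the 6 group means of all 18 libraries, an interaction term compared the high minus low difference of PFC with that of the tissue labelled MDTH, in which the thalamic gene Tcf7l2 lay between 23166 and 37512 normalized counts, and with that of the tissue labelled HPF. Against MDTH 0 of the 40 were called (623 of 18254 genes, 3.41%, over the whole table), with 10 at an unadjusted p below 0.05. In MDTH, as in PFC, the library names of high and low performers are written in different styles, so performance and name style cannot be told apart in either tissue. The HPF names share 1 style. Against HPF 27 of the 40 were called (1669 genes, 9.14%, over the whole table). The library names carry the numbers 44, 88 and 165 for the high performers of all 3 tissues, and 130 for a low performer in both PFC and MDTH, so values of different tissues may come from the same animals. No number is shared between the low performers of PFC and those of HPF.

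Eif4e illustrates the pattern, with 7466 ± 339 against 4176 ± 148 normalized counts in MDTH (log2 difference 0.84) and 6453 ± 503 and 6646 ± 575 (-0.04) in HPF (SD, n = 3 each). Rpl22l1 read 2528 ± 202 against 913 ± 42.2 in MDTH and 2616 ± 220 against 2291 ± 265 in HPF. Atp5e read 1953 ± 64.3 against 909 ± 228 in MDTH and 1746 ± 139 against 2368 ± 354 in HPF, where the high performers had the lower mean. H2-T22 had like differences in all 3 tissues, -2.44 in PFC, -2.44 in MDTH and -2.35 in HPF, but in HPF it was not called (limma adjusted p = 0.205). Adcyap1 differed by 1.31 in PFC and by -1.77 in MDTH, where it read 328 ± 121 against 1140 ± 430, and this was the smallest adjusted p of the 40 against MDTH (adjusted p = 0.0615).

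**Figure D5:**
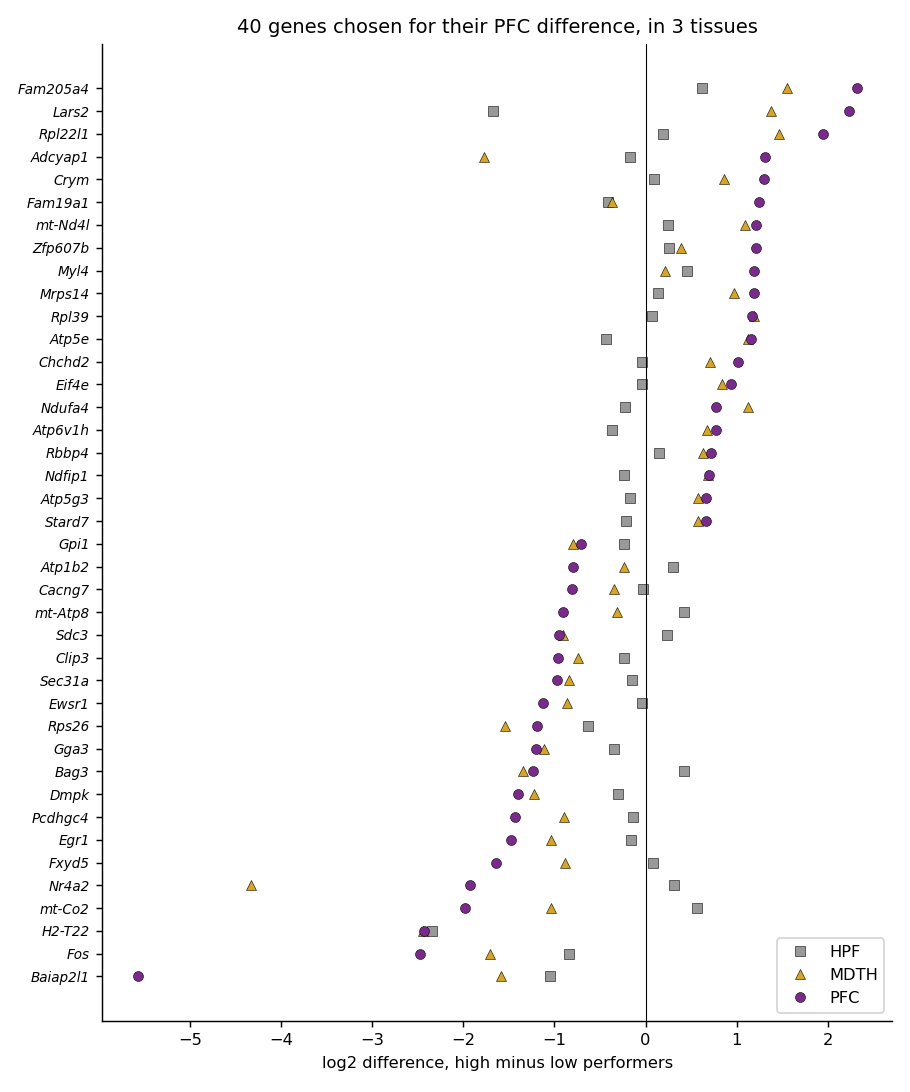
Log2 difference, high minus low performers, of 40 genes chosen for their PFC difference, in PFC (purple circles), MDTH (yellow triangles) and HPF (grey squares). The MDTH points mostly lie near those of PFC, with Adcyap1 at -1.77, and most HPF points lie nearer to 0.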

How the data were processed

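The deposited table holds 1 normalized count per gene and library, a signal made by the authors and called normalized in the name of the deposited file. How it was scaled is not given in the sources used here, and only part of the low values are whole multiples of 1 read. The submitters' processing notes list STAR, Salmon and DESeq2, with neither version nor role, and the labels give a TruSeq stranded library kit. The genome build, annotation and use of strand are not given in the sources used here. All 18 columns were matched to samples by library name and 0 were left over. Coordinates are from GENCODE M21 (GRCm38), which held 48058 of the 48440 gene identifiers. Because the values are not whole counts, no count model was run.

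The 6 PFC libraries were fitted alone in limma 3.58.1 (R 4.3.3) on log2(normalized count + 1), with genes at a mean of at least 10, a mean-variance trend, a two-sided moderated test and Benjamini-Hochberg adjustment over the 17991 genes. Called means an adjusted p below 0.05. Interactions used all 18 libraries and 6 group means, with no term for the numbers in the library names. Libraries that share a number were thus treated as independent. Tables were prepared with Python 3.11.15, pandas 2.3.3 and numpy 2.4.6, and figures with matplotlib 3.10.9. The fit was tested on simulated data.

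The comparison, the 52 gene lists and the tests were chosen with earlier results of these data known, so the lists are described by counts and medians. Genes named are the 12 higher and 12 lower with the largest called, non-overlapping differences at a mean of at least 500, the 8 and 8 with the smallest p at a mean of at least 5000, the 3 members of each list with the smallest p, Gpr12, and genes below 5 in 1 group and at least 100 in the other. Predicted-gene, Rik, clone and pseudogene names were left out of the first 2 kinds. Some genes taken by this rule are not reported here. Other list members are given as examples, chosen after their values were seen. Alternatives were other pseudocounts, filters and scalings, no trend, leaving out each library, a replicate block and a fit to all 18 libraries. Replicate numbers are in the titles, but high and low performers are different mice, and same-numbered libraries did not deviate together.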

Additional observations from a re-analysis of the deposited data

Results flagged for a closer look

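For 27 of the 40 genes with the largest or firmest PFC differences, the high minus low difference in PFC was unlike that in HPF by limma's interaction test (adjusted p from 1.47e-05 to 0.0489). Values below are the PFC difference minus the HPF difference on the log2(normalized count + 1) scale. The genes were chosen for their PFC difference, so these tests are not independent of the choice.

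Among genes of mitochondria and ATP synthesis the value was 3.90 for Lars2, which differed by 2.23 in PFC and by -1.67 in HPF. It was 1.59 for Atp5e, 0.84 for Atp5g3, 1.00 for Ndufa4, 1.05 for Chchd2 and 0.88 for Stard7, a lipid transfer protein. The mitochondrially encoded mt-Co2 and mt-Atp8 had values of -2.55 and -1.33, with HPF differences of 0.57 and 0.42 against -1.98 and -0.91 in PFC.

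In translation, ribosomes and protein handling, the value was 1.76 for Rpl22l1 and 1.09 for Rpl39, with HPF differences of 0.19 and 0.08, and 0.98 for Eif4e. Atp6v1h had 1.14 and Ndfip1 0.93, each with a negative difference in HPF. Bag3 had -1.67, at -1.24 in PFC and 0.43 in HPF, and Sec31a and Gga3 had -0.82 and -0.85.

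Nuclear proteins gave -1.09 for Ewsr1 and 0.58 for Rbbp4. At the membrane and cytoskeleton the value was -4.52 for Baiap2l1, -1.72 for Fxyd5, -1.18 for Sdc3, -1.09 for Atp1b2, -0.78 for Cacng7 and -0.72 for Clip3. Fam19a1 had 1.66, Dmpk -1.09 and Gpi1 -0.48.

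HPF differs from PFC in more than the tissue. Its libraries were estimated at 76705451 to 88633852 reads, their names share 1 style in both groups, and the share of mitochondrially encoded genes was 6.51% to 8.63% in high and 4.66% to 6.25% in low performers. The part of these in the interactions was not tested.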

How the results depend on the processing

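The count of called genes was within 1.5 times 1053 with the other pseudocounts, filters and scalings. It was 52 (25 higher, 27 lower) without the mean-variance trend and 2537 (1359 higher, 1178 lower) in the fit to all 18 libraries. Leaving out 1 library gave 7 to 1306 genes, 4 to 592 of them higher and 2 to 714 lower. With a replicate block limma called 0 genes (0 higher, 0 lower), with 3822 at an unadjusted p below 0.05 against 4337 without it. Correlations of the deviations of same-numbered libraries were -0.15, -0.03 and -0.01, so the numbers give no pairing. Of the 40 genes compared across tissues, the number unlike MDTH was 1 with the replicate block and 0 to 1 leaving out a library. The number unlike HPF was 21 to 27 over all alternatives. Scaling by the median ratio called 550 higher and 517 lower, and scaling without mitochondrially encoded genes 720 and 534. Differences near 0 changed sign for Xist, from -0.53 to 0.011 and 0.42 without high performer replicates 1 and 2 (range leaving out 1 library -1.75 to 0.42), and for Gpr12, from 0.12 to -0.034 without low performer replicate 2 (range -0.034 to 0.26). No gene called in the main comparison changed sign in any alternative in which it was tested. With 3 libraries a group, differences that miss the threshold are not shown to be absent.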
